A study of Mus musculus with 3 samples.

Results

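The solute carrier (SLC) genes expressed in mouse macrophages after a repeated Lipid A challenge were 152 of the 379 genes whose symbol is Slc followed by a family number. Members had to have a protein_coding transcript and at least 1 TPM (transcripts per 1e6 transcripts, a length-corrected share) in each of the 3 libraries. Of the 379 genes, 371 had a protein_coding transcript and 157 of these met the minimum. Slc2a1, Slc16a3, Slc11a1, Slc11a2 and Slc40a1 met it and were left out by name, and Slc7a2 and Slc7a11, left out as well, did not. The members were thus chosen by their TPM in these libraries, and their levels are given as a description, without a test.

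The study sequenced RNA of the cytosolic fraction of macrophages that had been grown in culture from bone marrow of the C57BL/6J mouse strain. All 3 libraries, biological replicates 1, 2 and 3, came from the same treatment: 100 ng/ml Lipid A for 12 h, 12 h after washing it out, then 100 ng/ml Lipid A for 50 min. Lipid A is the membrane anchor of lipopolysaccharide and the ligand of Toll-like receptor 4. The RNA was total RNA depleted of ribosomal RNA. With 1 treatment there was no contrast between conditions, so the comparisons below are between genes within a library and between replicates. The labels name 1 donor entry for all 3, and sex and age are given as not collected. P-values measure the spread between these cultures only.

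SLC proteins carry small molecules across membranes, either down a gradient or coupled to the movement of sodium, protons or another substrate. A family number groups proteins of related sequence, and families differ in cargo: families 7, 38 and 43 carry amino acids, family 25 serves the inner mitochondrial membrane, families 30 and 39 move zinc, and family 35 feeds nucleotide sugars into the endoplasmic reticulum and Golgi. Macrophages use such carriers to empty lysosomes after they digest prey, to handle iron and copper, and to exchange citrate, succinate and glutamate with their mitochondria.

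Sequence just before the start of 6 genes is shown because they are among the 20 members with the widest spread between replicates, described further on, and RefSeq promoters cover them. Slc30a1 and Slc31a2 were taken since both move metals and hold a metal response element core. The zinc and manganese importer Slc39a8, also among the 20, holds the same core and is not shown. Unlike Slc30a1 and Slc31a2, which were highest in replicate 3, it was lowest there. Slc12a9 and Slc24a5, of the ion and pH families, are also among the 20, hold this core and are not shown. They were highest in replicates 3 and 1. Each run reads 5′ to 3′ on the gene's strand, on GRCm38.p6, and covers at most the 250 bases before the RefSeq start, ending earlier where the transcript that carries most of the gene's TPM starts earlier in GENCODE. Slc31a2 is shown to its RefSeq start, 20 bases from the start of that transcript. The runs of Slc13a3 and Slc30a1 end 33 and 14 bases, and that of Slc38a2 ends 2 bases, before the RefSeq start from which positions are counted here. Capitals mark 4 motifs on either strand. The GC box is searched as GGGCGG. The core of the E-box, which bHLH factors can bind, reads CACGTG. The CCAAT box has the letters of its name. One core of the metal response element, which the zinc-sensing factor MTF1 binds, was spelled TGCACNC. The runs are Slc38a2 at chr15:96699731-96699978, Slc7a1 at chr5:148399905-148400154, Slc13a3 at chr2:165473231-165473447 and Slc25a22 at chr7:141434595-141434844, all on the minus strand, and Slc30a1 at chr1:191906531-191906766 and Slc31a2 at chr4:62286179-62286428 on the plus strand.
Slc38a2: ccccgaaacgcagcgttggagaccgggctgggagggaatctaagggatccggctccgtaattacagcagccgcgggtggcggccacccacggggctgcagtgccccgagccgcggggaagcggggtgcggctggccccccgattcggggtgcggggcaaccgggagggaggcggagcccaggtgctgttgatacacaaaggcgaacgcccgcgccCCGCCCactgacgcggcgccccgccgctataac
Slc7a1: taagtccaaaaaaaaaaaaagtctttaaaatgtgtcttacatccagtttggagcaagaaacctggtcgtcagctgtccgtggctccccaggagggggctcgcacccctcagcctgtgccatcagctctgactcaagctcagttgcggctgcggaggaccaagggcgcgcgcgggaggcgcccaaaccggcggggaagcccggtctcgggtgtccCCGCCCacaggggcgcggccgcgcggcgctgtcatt
Slc13a3: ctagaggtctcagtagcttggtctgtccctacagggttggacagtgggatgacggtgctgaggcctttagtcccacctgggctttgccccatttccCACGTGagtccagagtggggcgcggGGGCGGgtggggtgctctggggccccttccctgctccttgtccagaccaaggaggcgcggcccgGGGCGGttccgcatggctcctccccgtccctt
Slc25a22: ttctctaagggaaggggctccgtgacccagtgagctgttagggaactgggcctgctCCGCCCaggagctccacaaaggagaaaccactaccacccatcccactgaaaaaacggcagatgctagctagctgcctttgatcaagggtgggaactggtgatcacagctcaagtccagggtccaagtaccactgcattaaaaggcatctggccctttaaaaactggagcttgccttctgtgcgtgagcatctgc
Slc30a1: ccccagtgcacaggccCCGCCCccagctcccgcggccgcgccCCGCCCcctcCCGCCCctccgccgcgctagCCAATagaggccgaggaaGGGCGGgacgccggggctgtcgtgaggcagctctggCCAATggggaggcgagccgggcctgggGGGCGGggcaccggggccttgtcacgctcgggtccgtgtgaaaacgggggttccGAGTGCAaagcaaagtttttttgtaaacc
Slc31a2: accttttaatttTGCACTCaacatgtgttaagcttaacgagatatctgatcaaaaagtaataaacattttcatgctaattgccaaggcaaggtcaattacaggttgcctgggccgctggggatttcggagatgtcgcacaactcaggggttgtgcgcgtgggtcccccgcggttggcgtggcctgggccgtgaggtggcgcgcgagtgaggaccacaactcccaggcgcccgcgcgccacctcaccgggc

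Slc38a2 and Slc7a1, which carry neutral and cationic amino acids into the cell, each held 1 GC box, beginning 35 and 36 bases before the RefSeq start. Slc13a3, a sodium-coupled dicarboxylate carrier, held the E-box core 154 bases before the start and 2 GC boxes. Slc30a1, which exports zinc, held the metal core 43 bases before the start, 2 CCAAT boxes and 5 GC boxes. Slc31a2, a copper carrier, held the metal core 238 bases before the start and no other marked motif. Slc25a22, a mitochondrial glutamate carrier, held 1 GC box. A match is a string of letters and not a measured binding site.

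RefSeq promoters were matched for 116 of the 152 members, 157 promoters in all. Over the 250 bases before the start, CACGTG stood in 14.0% of member promoters, in 8.91% of 9297 promoters of expressed protein-coding genes and in 6.02% of all 32851 promoters. GGGCGG stood in 63.1%, 58.6% and 32.7% of them. CCAAT stood in 30.6%, 35.2% and 33.8%, and TATAAA in 3.82%, 6.09% and 12.4%. Median GC content was 60.8% in member promoters, 60.0% in those of expressed genes and 52.4% in all. Both metal cores were common. TGCGCNC stood in 25 genes, in 17.2% of member promoters, 21.8% of those of expressed genes and 12.5% of all. TGCACNC stood in 19 genes, with shares of 12.7%, 10.3% and 10.4%. The amino-acid response element TTGCATCA stood in Slc50a1 and Slc7a7 alone of the 116, in 1.27% of member promoters, 0.495% of those of expressed genes and 0.791% of all. The longer E-box TCACGTGA, which contains CACGTG, stood in Slc25a36, Slc35a5 and Slc37a3, in 1.91%, 1.74% and 0.785%. The interferon-stimulated response element stood in Slc25a15, Slc25a22 and Slc37a1 (1.91%, 3.07% and 2.98%), and the NF-kB site in Slc37a4 (0.637%, 0.387% and 0.356%). Slc25a22 holds it before another of its starts, not in the run shown. These shares are descriptions with no test.

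Library totals were 47972048, 54409437 and 53491936 expected counts for replicates 1 to 3, and a member held between 149.71 and 77766 expected counts in a library. The 7SL RNA genes took 55.0%, 64.0% and 56.6% of TPM. TPM shares out a fixed total, and replicates are therefore compared below as CPM, counts scaled to a common library size by TMM. Malat1, a nuclear RNA, stood at 5966, 3089 and 1426 CPM and mitochondrial genes took 0.580%, 0.356% and 0.140% of counts. All 8 macrophage markers were expressed, with a median of 438, 347 and 542 TPM. Of the markers of neutrophils, T, NK and B cells, erythroid cells, fibroblasts, endothelium and mast cells, S100a8 and S100a9 alone reached 1 TPM in each library, at means of 3.80 and 5.41 TPM. Their summed level per list was at most 10.4 TPM in a library, and Ly6g, Trac, Slc4a1 and Fcer1a were at 0 in all 3. In bulk RNA, fewer cells of a type and less RNA per cell cannot be told apart.

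The 152 members fell into 41 of the 49 Slc families and took 0.856%, 0.847% and 0.885% of the TPM on protein-coding genes in replicates 1, 2 and 3. Their median level was 8.36, 6.01 and 8.68 TPM, against 9.78, 7.29 and 10.3 TPM for 9059 expressed protein-coding genes. Mean TPM was at least 10 in 64 members, at least 50 in 11 and at least 100 in 5. The 10 highest members held 43.1%, 42.5% and 44.3% of the members' TPM. Of the 212 genes below the minimum, 98 held 0 expected counts in all 3 libraries and 177 had a mean under 0.1 TPM.

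Just inside the minimum were Slc5a6 (1.06, 1.03 and 1.2 TPM), Slc19a1 (1.30, 1.04 and 1.17 TPM) and Slc25a35 (1.27, 1.05 and 1.26 TPM). Just outside were Slc22a18 (0.93, 0.66 and 0.89 TPM), Slc17a9 (1.30, 0.66 and 0.99 TPM) and Slc22a4 (1.44, 0.61 and 0.70 TPM). Replicate 2, where 7SL RNA took most, was the lowest library for all 6 of these genes and decided membership for 1 gene: without it 153 genes pass. Of the members, 3 are named after a carrier without being one: Slc9a3r1, a scaffold protein that anchors membrane proteins, Slc4a1ap and Slc7a6os.

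**Figure D1:**
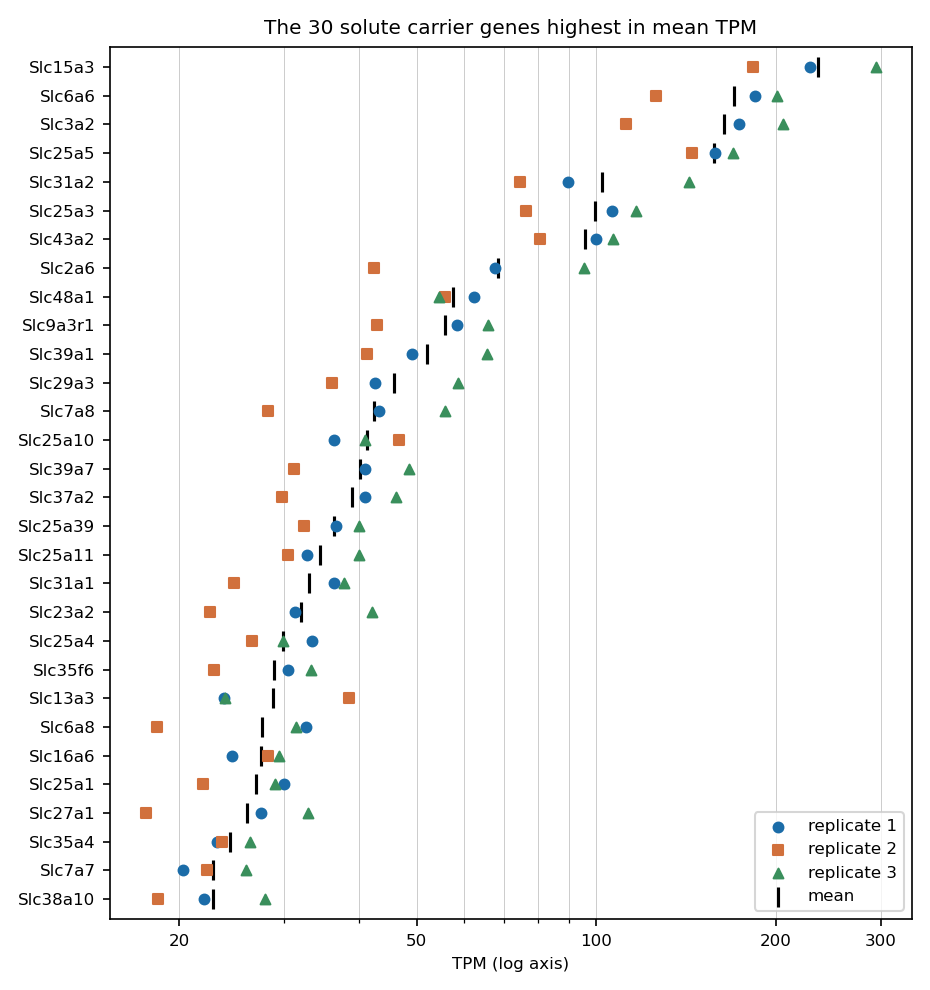
TPM on a log axis of the 30 members highest in mean TPM, with 1 marker per replicate and a bar at the mean of the 3. Slc15a3 leads in every library, and the replicate 2 marker is the leftmost for most genes, with Slc25a10 and Slc13a3 among those where it is the rightmost.

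By cargo, 22 amino acid and peptide carriers held 32.6% ± 1.61 (SD, n = 3) of the members' TPM, and 33 mitochondrial carriers held 22.2% ± 1.39. The 21 metal and heme carriers held 14.0% ± 0.401 and the 16 members of sugar and carboxylate families 8.95% ± 0.580. The 20 carriers of nucleosides, vitamins, lipids, phosphate and organic ions held 7.73% ± 0.452. The 20 members of ion and pH families held 7.64% ± 0.165 and the 20 carriers of nucleotide sugars and acetyl-CoA 6.93% ± 0.289. Classes were set by family number, so a family with mixed cargo counts once. The purine base carrier Slc43a3 and Slc7a6os, which is not a carrier, thus count in the amino acid class. Slc9a3r1 and Slc4a1ap, not carriers either, count in the ion and pH families. Slc9a3r1 held a mean of 55.7 of the 212 TPM of those families. The mitochondrial class had the most members while the amino acid class had the larger sum in each library.

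**Figure D2:**
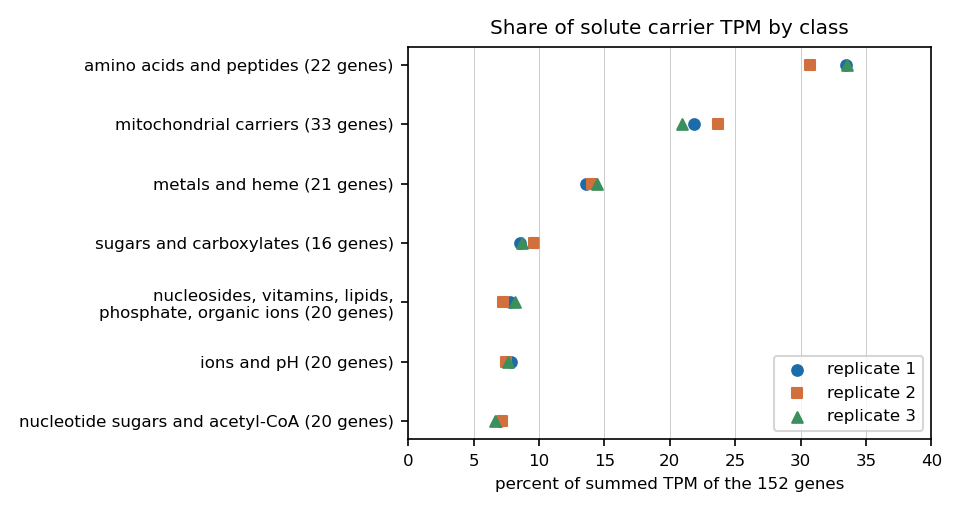
Percent of the summed TPM of the 152 members on each of 7 cargo classes, with 1 marker per replicate. Amino acid and peptide carriers lie at 33.5%, 30.7% and 33.5% in replicates 1, 2 and 3, above mitochondrial carriers in each library.

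Lysosomal and plasma membrane carriers of amino acids and peptides stood at the top. Slc15a3 (chr19:10839727-10859362), a proton-coupled carrier of histidine and peptides in the lysosomal membrane, measured 228, 183 and 294 TPM. It was the highest member in each library. Its relative Slc15a4, which also serves endolysosomes, measured 18.1, 10.6 and 19.9 TPM, so that Slc15a3 was 12.6, 17.3 and 14.8 times as high per length. Tmem132a overlaps 1541 bases of Slc15a3 on the opposite strand at a mean of 54.6 TPM, and the strand setting of the counting is not given in the sources used here.

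Slc6a6, the taurine carrier, measured 185, 126 and 201 TPM, and Slc6a8, the creatine carrier, 32.7, 18.4 and 31.4 TPM. They were the family 6 members above the minimum, of 21 genes in that family. Slc43a2, a facilitative carrier of large neutral amino acids, measured 100, 80.4 and 107 TPM, and Slc43a3 of the same family, a purine base carrier, 11.8, 5.86 and 16.5 TPM. Slc6a6, Slc3a2 and Slc25a5 changed places between libraries, so their order is not set beyond the spread of replicates.

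Slc3a2, the heavy chain that brings several family 7 carriers to the cell surface, measured 173, 112 and 206 TPM. Its light chains were lower: Slc7a8 measured 43.3, 28.2 and 55.8 TPM, and Slc7a7 measured 20.3, 22.3 and 25.9 TPM. Slc7a5 measured 5.04, 2.10 and 4.79 TPM, and Slc7a6 measured 1.62, 1.43 and 1.26 TPM. Slc7a8 and Slc7a5 exchange large neutral amino acids, while Slc7a7 and Slc7a6 exchange cationic for neutral ones. Slc3a2 stood at 2.47, 2.08 and 2.35 times the summed TPM of these 4 light chains, of which Slc7a8 made up 59.2% ± 6.08 (SD, n = 3), Slc7a7 33.2% ± 6.97, Slc7a5 5.51% ± 1.64 and Slc7a6 2.13% ± 0.625. Slc7a11, a further partner of Slc3a2 that exchanges cystine for glutamate, measured 4.86, 0.52 and 1.17 TPM and fell under the minimum in replicate 2. Slc7a1, the cationic carrier that takes up arginine without the heavy chain, measured 7.47, 3.22 and 7.98 TPM. Slc7a5 shares 26545 bases with Gm20388 on the opposite strand, listed at a mean of 9.92 TPM.

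Family 38, sodium-coupled neutral amino acid carriers, had 6 members of 11 genes. Slc38a10 was the highest at 21.97, 18.5 and 27.9 TPM and Slc38a9, the lysosomal arginine sensor that acts on mTORC1, the lowest at 5.43, 3.81 and 6.85 TPM. Slc38a7, which exports glutamine from lysosomes, measured 18.4, 14.0 and 21.03 TPM, and Slc38a6 measured 13.8, 7.65 and 10.2 TPM. Slc38a1 (18.5, 10.6 and 13.5 TPM) and Slc38a2 (16.5, 4.16 and 17.0 TPM) lie 44478 bases apart on chromosome 15. Slc38a2 was the lower of this pair in replicates 1 and 2 and the higher in replicate 3. The proton-coupled Slc36a1, at the lysosome, measured 14.1, 13.3 and 14.6 TPM, and Slc36a4 measured 7.81, 5.41 and 7.81 TPM. Slc1a5, the glutamine carrier, was the only family 1 member, at 2.87, 1.30 and 2.10 TPM.

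In the pathway to mTORC1 that lysosomal amino acid carriers feed, 17 of 19 listed genes were expressed, Rragb and Castor1 being the exceptions. Lamtor1, which anchors the Ragulator complex to the lysosome, was the highest on the mean at 73.7, 70.2 and 88.6 TPM, followed by Fnip2 at 77.9, 44.1 and 98.4 TPM and Rragc at 60.0, 39.3 and 76.2 TPM. Mtor itself measured 5.47, 4.05 and 6.35 TPM.

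Mitochondrial family 25 had 33 members of 47 genes. Slc25a5, the adenine nucleotide translocase that exports ATP, measured 158, 145 and 170 TPM, and Slc25a3, which imports phosphate, 106, 76.1 and 116 TPM. The second translocase, Slc25a4, measured 33.3, 26.5 and 29.8 TPM, and Slc25a5 exceeded it 4.75, 5.46 and 5.69 times. Among carriers of organic acids, Slc25a10 (dicarboxylates) measured 36.3, 46.7 and 41.0 TPM, Slc25a11 (2-oxoglutarate and malate) 32.8, 30.5 and 39.97 TPM, and Slc25a1 (citrate) 29.9, 21.9 and 28.9 TPM. Slc25a22, a glutamate carrier, measured 17.6, 15.04 and 35.5 TPM. Slc25a37 and Slc25a28, which import iron, measured 6.95, 4.30 and 6.51 TPM and 6.83, 3.97 and 6.54 TPM. The lowest member, Slc25a35, had a mean of 1.19 TPM ± 0.124 (SD, n = 3).

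Copper, heme and zinc carriers and the 3 members of family 41 made up the metal class. Slc31a2, a low affinity copper carrier of inner membranes, measured 89.7, 74.5 and 143 TPM, and Slc31a1, the copper importer of the cell surface, 36.4, 24.8 and 37.7 TPM. Cdc26 overlaps 8116 bases of Slc31a1 on the opposite strand. Slc48a1, which moves heme out of the phagolysosome, was the only gene of its family and measured 62.4, 55.9 and 54.6 TPM. Family 39, zinc importers into the cytosol, had 10 members of 14 genes, from Slc39a1 (49.1, 41.2 and 65.6 TPM) and the endoplasmic reticulum carrier Slc39a7 (40.9, 31.1 and 48.6 TPM) down to Slc39a8 (1.96, 1.62 and 1.40 TPM). Slc39a1 was 9.94, 12.7 and 14.3 times as high as Slc39a10. Family 30, which moves zinc out of the cytosol, had 5 members of 10 genes. Slc30a1 measured 11.5, 10.5 and 17.8 TPM and Slc30a5 measured 13.3, 9.90 and 12.7 TPM, with Slc30a5 the higher in replicate 1 only. The lowest, Slc30a6, measured 6.06, 3.27 and 5.25 TPM. Of the divalent metal carriers left out by name, Slc11a1 had a mean of 160 TPM ± 10.3 (SD, n = 3).

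Sugar and carboxylate carriers were led by Slc2a6, a glucose carrier of inner membranes, at 67.7, 42.5 and 95.3 TPM. Other family 2 members were low: Slc2a9 (urate) measured 5.96, 5.83 and 6.05 TPM, Slc2a8 measured 4.02, 3.31 and 3.83 TPM, and the high affinity glucose carrier Slc2a3 was the lowest at 1.36, 1.09 and 1.16 TPM. Slc37a2, a sugar phosphate exchanger of the endoplasmic reticulum, measured 40.9, 29.7 and 46.2 TPM, and Slc37a4, the glucose 6-phosphate carrier of its family, was the lowest there at 2.34, 2.27 and 2.89 TPM. In family 16, Slc16a6 was the highest at 24.5, 28.2 and 29.4 TPM and Slc16a9 the lowest at 1.35, 1.43 and 1.57 TPM. Slc16a1, a lactate carrier, was under the minimum at 0.94, 0.57 and 0.68 TPM. Slc13a3 measured 23.8, 38.5 and 23.9 TPM, and was the only one of 5 family 13 genes above the minimum.

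Among the other classes, Slc29a3, the lysosomal nucleoside carrier, measured 42.7, 36.1 and 58.7 TPM, against 11.9, 10.3 and 12.4 TPM for Slc29a1 of the cell surface. The ascorbate carrier Slc23a2 measured 31.2, 22.5 and 42.1 TPM, and the phosphate carriers Slc20a1 and Slc20a2 measured 17.2, 8.78 and 11.7 TPM and 1.96, 1.62 and 1.56 TPM. Of 25 family 22 genes, which carry organic ions, Slc22a5 alone was a member. In the ion and pH families, Slc9a9, a sodium and proton exchanger of endosomes, measured 21.7, 13.5 and 16.9 TPM. The lowest family 12 member, Slc12a2, measured 1.94, 1.32 and 1.54 TPM. Family 35 had 19 members of 27 genes, from Slc35f6 (30.4, 22.9 and 33.3 TPM) to Slc35e3 (2.39, 2.07 and 2.69 TPM). The CMP-sialic acid carrier Slc35a1 measured 3.77, 3.35 and 3.42 TPM and the UDP-galactose carrier Slc35a2 measured 8.23, 7.39 and 9.14 TPM.

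Of 13 pairs of related members compared within libraries as differences of log2(TPM + 1), 11 kept 1 sign in all 3. The pairs Slc38a2 with Slc38a1 (mean difference −0.34 ± 0.75, SD, n = 3) and Slc30a1 with Slc30a5 (0.11 ± 0.33) did not. With 3 libraries an exact sign-flip permutation test cannot go below a p of 0.25, and the levels chose the members, so none was run.

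Replicates differed beyond counting error in most members. By a Poisson heterogeneity test against TMM library sizes, 124 of 152 members passed at a Benjamini-Hochberg adjusted p under 0.05 (81.6%), against 70.4% of 13827 genes tested and 77.8% of 9057 expressed protein-coding genes. With a ratio of highest to lowest replicate of at least 1.5 as well, 20 members remained (13.2%), against 19.7% and 10.2%. The median ratio was 1.22 for members and 1.19 for expressed protein-coding genes, and the median biological coefficient of variation 0.138 and 0.137. Leaving out 1 library at a time left 13 members past both criteria without replicate 1, 7 without replicate 2 and 10 without replicate 3. Of the 9057 expressed protein-coding genes, 534, 441 and 380 were left in the same order. Of the 124, 60 were highest in replicate 3 (48.4%, against 41% of all genes past the test and 47.7% of expressed protein-coding genes) and 58 lowest in replicate 1 (46.8%, against 39.5% and 47.9%). On plain library totals, which shift the replicates against each other by up to 0.17 on the log2 scale, the order turned round. Of 121 members past the test there, 54 were highest in replicate 1 and 55 lowest in replicate 3 (44.6% and 45.5%, against 45.6% and 47.2% of expressed protein-coding genes), compared with 24 and 22 of the 124 on TMM. Those highest in replicate 3 were 33 (27.3%, against 24.1%) and those lowest in replicate 1 were 22 (18.2%, against 19.2%).

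**Figure D3:**
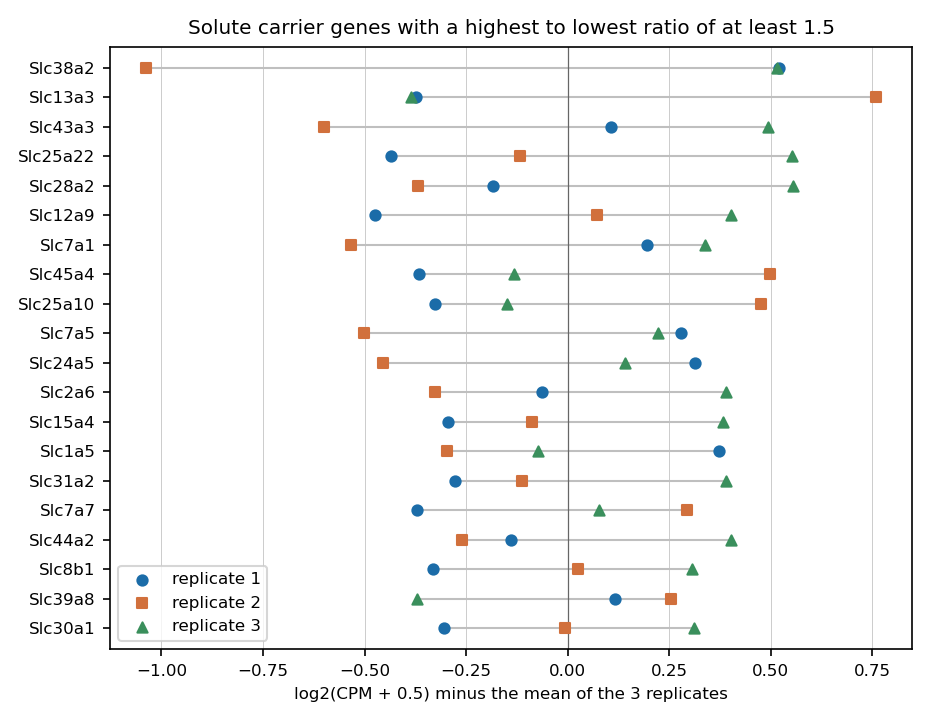
Deviation of each replicate from the mean of the 3, in log2(CPM + 0.5), for the 20 members that passed the test with a ratio of at least 1.5, ordered by that ratio. Slc38a2 lies at −1.04 in replicate 2 and Slc13a3 at 0.76 in the same replicate.

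The amino acid and peptide class had the highest median ratio of the classes, 1.33, and made up 7 of the 20. It was set by family number and so counts Slc43a3, a purine base carrier, among the 7. Slc38a2 measured 105, 35.4 and 105 CPM, a ratio of 2.94, with replicate 2 low and the other two together. Slc7a1 measured 68.6, 41.2 and 75.7 CPM (ratio 1.83), and Slc7a5 measured 22.8, 13.1 and 21.9 CPM (ratio 1.72). Both were lowest in replicate 2 as well, as were Slc43a3 (30.4, 18.4 and 39.8 CPM, ratio 2.13) and Slc1a5 (10.3, 6.27 and 7.41 CPM, ratio 1.59). These 5 stayed lowest in replicate 2 on DESeq2 size factors and on plain totals. Of the 21 amino acid and peptide carriers past the test, 11 were lowest in replicate 2, against 29.6% of all genes past it and 30.2% of expressed protein-coding genes. On plain totals they were 10 of 20, against 33.5% of expressed protein-coding genes. In other classes on TMM, those lowest in replicate 2 were 8 of 19 metal and heme and 6 of 21 mitochondrial carriers. In the sugar and carboxylate class they were 5 of 14, and in the ion and pH families 6 of 17. They were 3 of 15 in the nucleotide sugar and acetyl-CoA class. For nucleosides, vitamins, lipids, phosphate and organic ions they were 5 of 17. Slc7a11, left out by name, also had its lowest value in replicate 2 (31.7, 7.08 and 12.1 CPM).

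The exporter Slc7a7 went the other way within the class, at 46.4, 73.8 and 63.4 CPM (ratio 1.59), with replicate 1 the lowest. Slc15a4 was highest in replicate 3 at 42.9, 49.6 and 68.9 CPM. The most abundant carriers of the class varied less: Slc43a2 measured 778, 809 and 749 CPM (ratio 1.08), Slc6a6 measured 1393, 1310 and 1536 CPM (1.17), Slc15a3 measured 761, 799 and 947 CPM (1.24) and Slc3a2 measured 372, 324 and 447 CPM (1.38). All 4 passed the heterogeneity test. Lysosomal Slc38a7 and Slc38a9 had ratios of 1.13 and 1.16.

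Of the 14 members of the sugar and carboxylate class past the test, 9 were highest in replicate 2. The same held for 30.4% of all genes past it and 33.7% of expressed protein-coding genes. On plain totals those highest in replicate 2 were 7 of 13 in this class, against 30.2% of expressed protein-coding genes. In other classes on TMM, those highest in replicate 2 were 8 of 21 mitochondrial and 4 of 19 metal and heme carriers. In the nucleotide sugar and acetyl-CoA class they were 7 of 15, and in the ion and pH families 2 of 17. They were 4 of 21 in the amino acid and peptide class. For nucleosides, vitamins, lipids, phosphate and organic ions they were 6 of 17. Slc13a3 measured 108, 237 and 107 CPM (ratio 2.21), with replicate 2 high and the other two together. Slc45a4, of a family of sugar carriers, measured 58.7, 107 and 69.1 CPM (1.82). Slc25a10 of the mitochondrial class, which exchanges succinate and malate for phosphate, was also highest there at 90.5, 158 and 102 CPM (1.74). Slc16a6, at 118, 176 and 128 CPM, had a ratio of 1.497 and so missed the ratio of 1.5. Slc2a6 differed from these, with its highest value in replicate 3 (186, 155 and 255 CPM, ratio 1.64). The citrate carrier Slc25a1 did not pass the test, at 58.9, 59.4 and 58.0 CPM (adjusted p = 0.66, edgeR TMM library sizes).

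Some of the 20 members were highest in replicate 3, and these overlap with the members lowest in replicate 2. Slc7a1, Slc43a3 and Slc2a6, given above, and Slc28a2 and Slc44a2 were both. On plain library totals Slc7a1 was highest in replicate 1 instead, while 19 of the 20 kept both their highest and lowest replicate. The glutamate carrier Slc25a22 measured 49.1, 61.4 and 97.8 CPM (ratio 1.98), the nucleoside carrier Slc28a2 measured 58.4, 51.3 and 97.8 CPM (1.90) and Slc12a9 measured 32.5, 47.7 and 60.1 CPM (1.84). The choline carrier family member Slc44a2 measured 60.5, 55.6 and 88.3 CPM, and Slc8b1, the sodium and calcium exchanger of mitochondria, 65.2, 83.7 and 102 CPM. Among metal carriers, Slc31a2 measured 200, 225 and 319 CPM (1.59) and Slc30a1 measured 80.5, 99.0 and 123 CPM (1.53). In contrast, Slc39a8, which imports zinc and manganese, was lowest in replicate 3 at 8.59, 9.50 and 5.98 CPM (1.54). On plain library totals the ratios of Slc15a4, Slc31a2, Slc7a7, Slc8b1 and Slc30a1 lay between 1.36 and 1.49, under the ratio of 1.5. Of the 8 macrophage markers, Fcgr1, Csf1r, Cd68, Mpeg1 and Mertk were also highest in replicate 3, Fcgr1 at 571, 726 and 1057 CPM. Adgre1, Lyz2 and C1qa were highest in replicate 2, C1qa at 221, 384 and 313 CPM. The part of these markers in the values above was not tested.

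**Figure D4:**
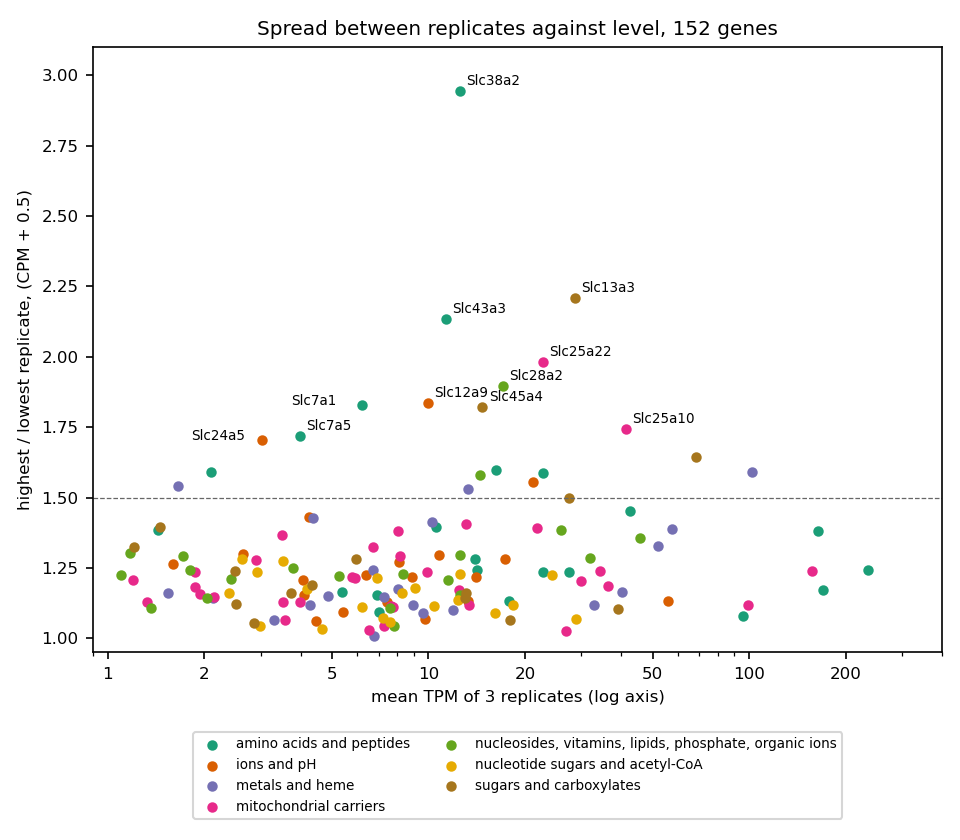
Ratio of the highest to the lowest replicate in CPM + 0.5 against mean TPM on a log axis, 1 point per member, coloured by class. The dashed line marks 1.5. Slc38a2, Slc13a3 and Slc43a3 lie above 2, and all 20 members of the nucleotide sugar and acetyl-CoA class lie below the line.

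Members of the nucleotide sugar and acetyl-CoA class had the lowest median ratio of the 7 classes. The class was set by family number alone, so its name need not give the cargo of each gene. None of the 20 reached a ratio of 1.5, with that median at 1.15, although 15 of them passed the heterogeneity test. Slc35f6 measured 119, 122 and 127 CPM, and Slc35b3 measured 12.2, 11.8 and 12.2 CPM. In the mitochondrial family 21 of 33 passed the test and Slc25a10 and Slc25a22 alone reached the ratio. The ATP exporter Slc25a5 measured 225, 278 and 243 CPM (1.24), and the phosphate carrier Slc25a3 measured 211, 202 and 227 CPM (1.12). The smallest ratio of any member was 1.01, in the zinc carrier Slc30a9 at 40.8, 41.2 and 40.9 CPM. By class, 19 of 21 metal carriers, 17 of 20 ion and pH genes and 17 of 20 carriers of nucleosides, vitamins, lipids, phosphate and organic ions passed, with 3, 3 and 2 of them at the ratio. Over all genes tested, 70.4% passed and 19.7% also reached the ratio. For expressed protein-coding genes these shares were 77.8% and 10.2%, and the class counts were not tested against them.

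Carriers of SLC families whose symbols do not start with Slc were measured the same way. Of 26 listed, 25 were matched and 20 expressed. Of the 25, Spns2 and Slco2b1 had a mean count under 10 and were not tested. The heterogeneity test was passed by 19, against 70.4% of genes tested and 77.8% of expressed protein-coding genes. Slco3a1 and Sfxn5 also had a ratio of at least 1.5, against 19.7% and 10.2%. Slco3a1, an organic anion carrier, measured 47.4, 61.1 and 112 CPM (2.35), highest in replicate 3. Sfxn5 measured 17.0, 26.7 and 19.0 CPM. The highest of them in TPM was Ucp2, a mitochondrial carrier of family 25, at 137, 122 and 233 TPM, which on the mean stands beside Slc3a2. Of the 19 genes of lysosomal amino acid sensing, 16 passed the test, against 70.4% of genes tested and 77.8% of expressed protein-coding genes. Rptor and the genes that were not expressed, Rragb and Castor1, did not pass. Fnip2, Castor2 and Sesn1 also had a ratio of at least 1.5, against 19.7% and 10.2%. Castor2 and Sesn1 were highest in replicate 2, at 45.9, 70.5 and 48.3 CPM and at 74.3, 100 and 60.4 CPM, and Fnip2 was lowest there at 655, 509 and 824 CPM.

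Most of the TPM of the members lay on transcripts annotated as coding. The 152 genes have 1004 annotated transcripts, and 90.7%, 93.4% and 93.5% of their TPM lay on protein_coding ones in replicates 1, 2 and 3, against 91.6%, 93.0% and 92.9% for expressed protein-coding genes. In 144 members the highest transcript was protein_coding in all 3 libraries, and in 139 it was the same transcript in all 3. The second transcript table, in kallisto's layout, gave 139 members with a coding highest transcript in every library. On protein_coding transcripts alone, 149 members would still pass 1 TPM in each library, and Slc25a14, Slc27a1 and Slc52a2 would not.

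The highest transcript of 4 members was not protein_coding in any library. Slc27a1, a fatty acid carrier of the plasma membrane, was the extreme: its coding transcripts were listed at 0.12, 0 and 0.77 TPM of a gene level of 27.5, 17.6 and 32.9 TPM, and retained_intron transcripts took 99.6%, 99.7% and 97.7%. In the kallisto-layout table the coding share of Slc27a1 was 21.9% on the mean. Slc25a12, an aspartate and glutamate carrier, had 13.0%, 15.4% and 13.3% of its TPM on coding transcripts and 62.6% on a nonsense_mediated_decay transcript on the mean. Slc35b4, a carrier of nucleotide sugars, had 31.6%, 33.3% and 30.8% on coding transcripts, and Slc52a2, a riboflavin carrier, 37.3%, 39.3% and 31.8%. The gene level of these 4 therefore stands mostly for RNA not annotated to encode the full carrier.

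**Figure D5:**
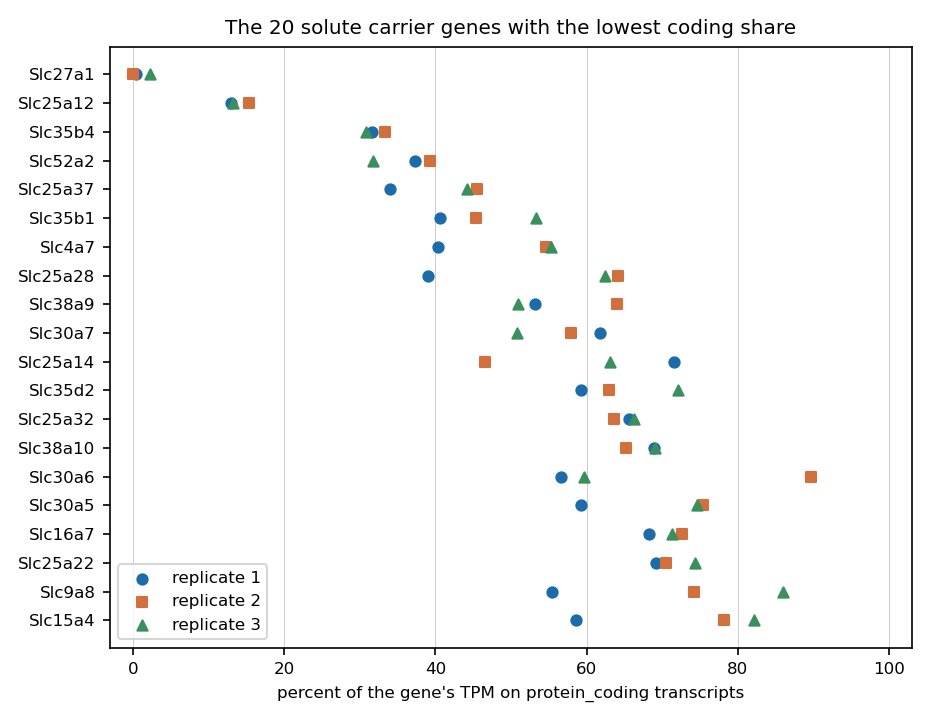
Percent of each gene's TPM on protein_coding transcripts, with 1 marker per replicate, for the 20 members with the lowest mean share. Slc27a1 lies near 0 in each library, and the replicate 1 marker is the leftmost in Slc9a8, Slc15a4, Slc25a28 and Slc4a7.

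Coding shares also differed between replicates. In 51 members the share spanned at least 5 percentage points, and in 36 of these it was lowest in replicate 1, against 54.8% of 2934 expressed protein-coding genes with such a span. Slc1a5 had 69.7%, 85.4% and 100% of its TPM on coding transcripts, with retained_intron transcripts at 30.3% and 14.6% in replicates 1 and 2. Slc20a1 had 73.7%, 86.6% and 97.1%, Slc9a8 had 55.4%, 74.1% and 85.9%, and Slc15a4 had 58.5%, 78.1% and 82.1%. Replicate 1 was the low library in each. Over all members, retained_intron transcripts took 4.65%, 3.20% and 2.99% of TPM, and over expressed protein-coding genes 4.20%, 3.26% and 3.20%. Malat1, given above, was highest in replicate 1 too, and its part in these shares was not tested. Slc38a2 had 91.2%, 95.0% and 98.4% on its coding transcript, lowest in replicate 1. A link between this share and its low CPM in replicate 2 was not tested.

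Neighbouring or overlapping genes touch some of these values. Members within 100000 bases of each other formed 6 pairs, among them Slc31a2 with Slc31a1 on chromosome 4 and Slc25a43 with Slc25a5 on chromosome X. Slc25a5 had a mean of 158 TPM and Slc25a43, 18448 bases away, 2.89 TPM. Another gene with a mean of at least 1 TPM overlapped 24 members, 22 of them on the opposite strand. Among the 20 members with wide spread these were Slc7a5 (Gm20388), Slc7a7 (Oxa1l) and Slc24a5 (Myef2, 4050 bases). Slc24a5, at 9.26, 5.23 and 8.16 CPM, was the only member whose posterior SD of the count exceeded 1% of the count.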

How the data were processed

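Each of the 3 libraries has 1 gene table and 2 transcript tables. Expected counts, fractional read estimates, were deposited by the authors without normalisation, with a posterior standard deviation of each. TPM was deposited by the authors in every table and includes short RNAs such as 7SL in its total. The mm10 assembly and GENCODE M21 are named in notes deposited with the files, and the column layouts are those of RSEM and kallisto. Which program and strand setting made the tables is not given in the sources used here. The members and lists were chosen with earlier results of these data known.

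Expected counts were rounded and scaled with TMM in edgeR 4.0.16 (R 4.3.3), with DESeq2 1.42.0 size factors and plain totals as alternatives. Entries that name no Ensembl gene (at most 0.0785% of counts) stayed out. Each gene with a mean count of at least 10 (all 152 members) was tested for Poisson heterogeneity (chi-square, 2 degrees of freedom, scipy 1.17.1) with Benjamini-Hochberg adjustment over 13827 genes and a threshold of 0.05. Ratios use CPM + 0.5 and pair differences log2(TPM + 1). No step of the report compares conditions. The heterogeneity test was run on simulated Poisson counts with set changes in some genes and no other variation between replicates. A count of 0 would allow at most 0.0592 CPM in a library (3 counts of its TMM library size), for counting error only.

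Genes are named by rule: the 15 highest members; the highest and lowest of families with at least 3 members; families 1, 3, 7, 15, 36 and 38; the 8 of widest ratio at a mean of at least 5 TPM; the 3 members just inside and 3 genes just outside the minimum; members whose highest transcript is not coding; the pairs; and genes left out by name. Others were named after their values were seen, and the GC box, short E-box, CCAAT box and TATA box letters were chosen then too. Promoter sequences are those of RefSeq on GRCm38.p6. Some genes that the rule names are not reported here.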

Additional observations from a re-analysis of the deposited data

How the results depend on the processing

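No paired analysis was possible because the 3 libraries form 1 group. On plain totals the order of replicates turned round: of 121 members past the test 54 were highest in replicate 1 and 55 lowest in replicate 3, while 33 were highest in replicate 3 and 22 lowest in replicate 1. Expressed protein-coding genes moved alike, with 45.6%, 47.2%, 24.1% and 19.2%. Raising the minimum to 5 TPM left 91 members. The median level of the members was 3.59 TPM in the kallisto-layout table, 25.02 TPM after rescaling to protein-coding genes and 37.97 as CPM, each by construction on another scale. Leaving out 1 replicate at a time gave 7 to 13 members past the test with a ratio of at least 1.5, since the highest and lowest of fewer libraries are compared, and 92 to 99 past the test alone. Of 9057 expressed protein-coding genes, 380 to 534 passed with the ratio and 5264 to 5524 passed the test alone. Another 54 values of the main results, under planned and added alternatives, stayed within 1.5 times or 1 SD, and none reversed. Of values outside the main results, 239 were counted as moved and 357 as the same. Restricting to protein_coding transcripts (149 members) and leaving out the 3 genes named after a carrier (123 past the test) were chosen after seeing the data. The 3 replicates, 1 treatment and unstated strand setting limit what these values show.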
